A study of Mus musculus with 8 samples.

Results

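The genes described here are the members of the Pax family other than Pax6, namely Pax1, Pax2, Pax3, Pax4, Pax5, Pax7, Pax8 and Pax9. They were chosen by symbol, and each had a value in the table of expression levels, so that 8 of its 36808 genes are described. Their RNA was measured by RNA-seq in 8 libraries of mouse embryonic stem cells (ESCs) or of cells at day 5 of directed differentiation into spinal motor neurons (SMNs), with 1 library per condition. Values are FPKM, numbers of sequenced fragments scaled by transcript length and library size, so levels of different genes can be set side by side. The table holds no read counts, the depth of the libraries is unknown, and no difference below has a replicate check or a test.

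The study compared lines mutant for core subunits of Polycomb Repressive Complex 2 (PRC2), the complex that trimethylates lysine 27 of histone H3 (H3K27me3), with wild-type cells. The ESC libraries were E14 wild-type (129/Ola background), CJ7 wild-type (129/S), Suz12delta (C57/BL6), in which SUZ12 is truncated, and Eednull (BALB/cR1), which carries a point mutation in Eed. The day 5 libraries were E14 wild-type, Suz12GT (129/Ola), in which a gene trap fuses SUZ12 to beta-galactosidase and which keeps part of its H3K27me3, Suz12delta and Eednull. Each genotype was 1 line, and for Suz12delta and Eednull the background and the mutation cannot be told apart. ESCs were grown with irradiated fibroblasts as feeders, which were removed by a brief plating. Differentiation was directed by removal of LIF and addition of retinoic acid and a hedgehog agonist. A library of Suz12GT ESCs was not analysed here.

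Pax genes encode transcription factors with a paired domain, which binds DNA, and act in the patterning of embryonic tissues. They fall into subfamilies that share structure and, in part, sites of expression. Pax2, Pax5 and Pax8 act at the midbrain-hindbrain boundary, and Pax2 and Pax8 also in the embryonic kidney and in inhibitory interneurons of the spinal cord. Pax3 and Pax7 mark the dorsal neural tube, the neural crest and muscle precursors, Pax1 and Pax9 mark the sclerotome and the pharyngeal pouches, and Pax4 acts in pancreatic endocrine cells together with its relative Pax6. In the ventral spinal cord, hedgehog signalling keeps Pax3 and Pax7 off. Genes for developmental transcription factors, Pax genes among them, are typical carriers of H3K27me3 in ESCs, often at CpG-rich promoters.

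Promoter sequences were taken from RefSeq (GRCm38.p6), which held windows for 6 of the 8 genes, from 250 bases before to 50 bases after the annotated start. Pax3 and Pax4 are named only. CpG dinucleotides (the letters CG, which read the same on both strands) were counted in each whole window. Pax2 had 3 windows with 7, 23 and 30 CpGs, the last holding more than 88.3% of the 32851 windows of the table, whose median was 7. Pax5 had 23 CpGs, Pax7 had 17, Pax1 had 13, Pax9 had 11 and Pax8 had 7. The part before the start is shown for 3 genes that differed in CpG content and in their day 5 pattern: Pax2, highest at day 5 in Suz12delta and Eednull cells, Pax9, highest in Suz12GT cells, and Pax5, highest in wild-type cells. CpGs are in capitals. The windows are chr19:44756656-44756905 (plus strand, 25 CpGs) for Pax2, chr12:56695221-56695470 (plus strand, 7 CpGs) for Pax9 and chr4:44710695-44710944 (minus strand, 19 CpGs) for Pax5.
Pax2: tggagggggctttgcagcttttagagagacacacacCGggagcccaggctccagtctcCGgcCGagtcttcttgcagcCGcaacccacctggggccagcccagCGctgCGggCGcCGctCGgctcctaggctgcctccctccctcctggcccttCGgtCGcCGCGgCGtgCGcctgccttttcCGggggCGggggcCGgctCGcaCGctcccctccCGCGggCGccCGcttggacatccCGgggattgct
Pax9: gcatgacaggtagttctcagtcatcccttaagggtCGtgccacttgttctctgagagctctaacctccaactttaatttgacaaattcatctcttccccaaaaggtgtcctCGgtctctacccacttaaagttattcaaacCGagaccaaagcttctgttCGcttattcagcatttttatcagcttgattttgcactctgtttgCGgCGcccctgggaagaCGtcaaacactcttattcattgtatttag
Pax5: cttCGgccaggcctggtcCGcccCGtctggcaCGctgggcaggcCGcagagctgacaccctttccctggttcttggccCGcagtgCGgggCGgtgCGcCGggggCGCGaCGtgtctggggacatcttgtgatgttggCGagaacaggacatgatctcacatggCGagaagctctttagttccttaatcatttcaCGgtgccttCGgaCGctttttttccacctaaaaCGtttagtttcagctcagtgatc
For Pax2, the window with the most CpGs was taken. Over the whole windows, G and C made up 71.7% of the Pax2, 59% of the Pax5 and 47% of the Pax9 bases. The other Pax2 windows had 54.7% and 61.7%, so the contrast with Pax9 depends on the start taken. No methylation or ChIP data were used here, so the CpG counts are a description of sequence.

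**Figure D1:**
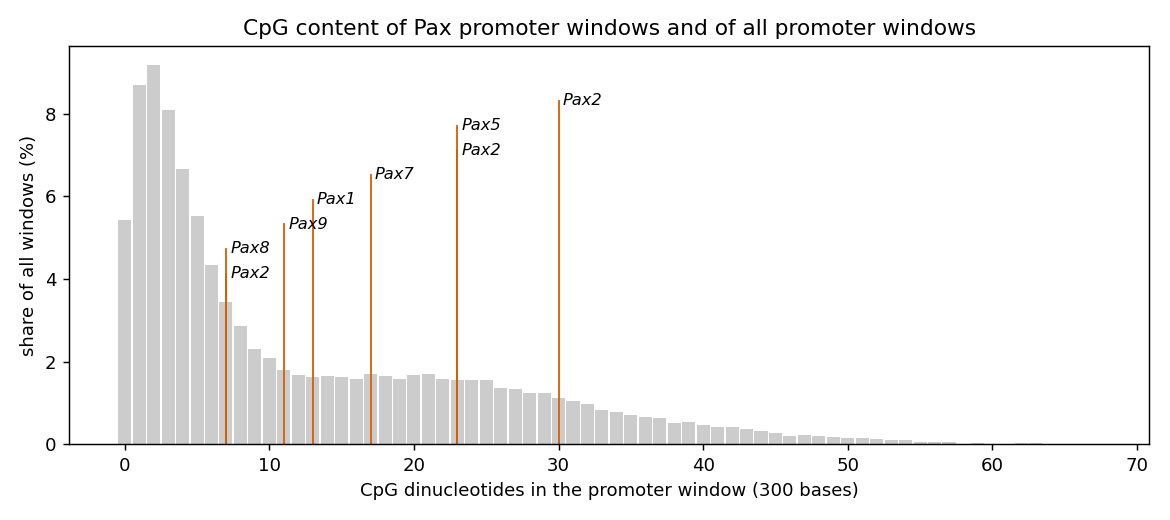
CpG dinucleotides per promoter window (horizontal axis) against the share of all 32851 RefSeq windows in percent (vertical axis, grey bars), with orange lines at the windows of 6 Pax genes. Line heights only separate the labels. The Pax lines run from 7 CpGs (Pax8 and 1 Pax2 window) to 30 (another Pax2 window), and none lies below the median of 7.

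On NCBI build 37, the build of the expression table, Pax1 (ENSMUSG00000037034) lies at chr2:147187661-147219031 and Pax8 (ENSMUSG00000026976) on the same chromosome at chr2:24276071-24331119. Pax5 (ENSMUSG00000014030) at chr4:44544017-44724318 and Pax7 (ENSMUSG00000028736) at chr4:139292977-139389445 also share a chromosome but not a neighbourhood. Pax2 (ENSMUSG00000004231) lies at chr19:44830539-44912758, Pax3 (ENSMUSG00000004872) at chr1:78097842-78193709, Pax4 (ENSMUSG00000029706) at chr6:28392334-28399353 and Pax9 (ENSMUSG00000001497) at chr12:57792754-57813809. Pax1, Pax2 and Pax9 lie on the plus strand and the other 5 on the minus strand. The sources used here do not say whether counting used strand, and exons of 4 members overlap a gene of the opposite strand. Pax9 shares 189 exonic bases with Slc25a21, Pax5 shares 125 with Gm12462, Pax8 shares 87 with Gm13415 and Pax1 shares 59 with AI646519.

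Pluripotency markers separated the ESC libraries from those of day 5. The summed level of 7 pluripotency markers was 487 to 1126 FPKM in the 4 ESC libraries and 1.22 to 17.2 FPKM at day 5. That of 6 motor neuron markers was 119 FPKM in E14 and 96.1 FPKM in Suz12GT cells at day 5, but 19.7 FPKM in Suz12delta and 18.2 FPKM in Eednull cells. In ESCs the motor neuron sum was 9.59 FPKM in E14, 16.5 in CJ7, 2.38 in Suz12delta and 13.3 in Eednull. Pax6 made up 8.99 FPKM of the E14 and 15.7 FPKM of the CJ7 sum. These markers thus set Eednull cells at day 5 little apart from ESCs. Of the mutated genes, Suz12 stood at 41.3 FPKM in E14, 53.1 in CJ7, 6.21 in Suz12delta and 35.7 in Eednull ESCs, and at 16.2 FPKM in E14, 10.3 in Suz12GT, 11.6 in Suz12delta and 17.6 in Eednull cells at day 5. Eed stood at 32.7, 50.9, 18.8 and 42.4 FPKM in the same ESC order and at 11.1, 12.9, 15.9 and 11.5 FPKM at day 5. Transcripts of truncated, trapped or point-mutated genes can still be made, so these levels do not test the labels. Fibroblast markers differed between libraries. All 12 were detected in every ESC library, and their summed level was 161 FPKM in E14, 160 in CJ7, 1048 in Suz12delta and 393 in Eednull ESCs. At day 5 the sum was 5.11 FPKM in E14, where 2 of the 12 were listed at 0, 24.4 in Suz12GT, 129 in Suz12delta and 65.9 in Eednull cells. Among mutant libraries against E14 of the same day, the widest ratios of the fibroblast and motor neuron lists were those of Col3a1, at 29.6 FPKM in Suz12delta cells at day 5 against 0.292 FPKM in E14, and of Olig2, at 0.0455 FPKM in Eednull cells at day 5 against 22.1 FPKM. Olig2 was also 5.19 FPKM in Eednull ESCs against 0.0436 FPKM in E14 ESCs, where Col6a1 differed least, at 8.91 against 8.01 FPKM. Klf4 was 3.21 FPKM in Eednull cells at day 5 and 0 in E14, and Zfp42 was 29.2 FPKM in Suz12delta ESCs against 113 FPKM. The part of fibroblasts in the Pax levels was not tested.

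Most levels were below 1 FPKM, and the library with the highest level differed between genes. It was a Suz12delta or Eednull day 5 library for Pax2, Pax3, Pax7 and Pax8, Eednull ESCs for Pax1, Suz12GT cells at day 5 for Pax9 and E14 cells at day 5 for Pax5. Summed over the 8 genes, the level was 0.464 FPKM in E14, 1.12 in CJ7, 0.960 in Suz12delta and 3.59 in Eednull ESCs, and 1.34 FPKM in E14, 2.36 in Suz12GT, 8.67 in Suz12delta and 11.4 in Eednull cells at day 5. The last sums rested on Pax2. Without it they were 2.89 FPKM in Suz12delta and 2.65 FPKM in Eednull cells at day 5, beside 2.92 FPKM in Eednull ESCs and 0.783 FPKM in E14 cells at day 5. In E14 ESCs only Pax8 reached 0.1 FPKM, the minimum used for expression, as did 54.0% of all genes, whereas 6 of the 8 did so in Eednull ESCs, against 62.4% of all genes. No member reached 1 FPKM in E14, CJ7 or Suz12delta ESCs or in E14 cells at day 5. The level passed 1 FPKM in Eednull ESCs for Pax1, in Suz12GT cells at day 5 for Pax9, in Suz12delta cells at day 5 for Pax2 and in Eednull cells at day 5 for Pax2, Pax3 and Pax9. Pax6, the relative left out of the group, was far higher than any of them in wild-type cells, at 8.99 FPKM in E14 ESCs, 15.7 in CJ7 ESCs and 21.9 in E14 cells at day 5. In these bulk libraries a higher level can mean more cells that express a gene or more RNA per cell, which cannot be told apart.

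**Figure D2:**
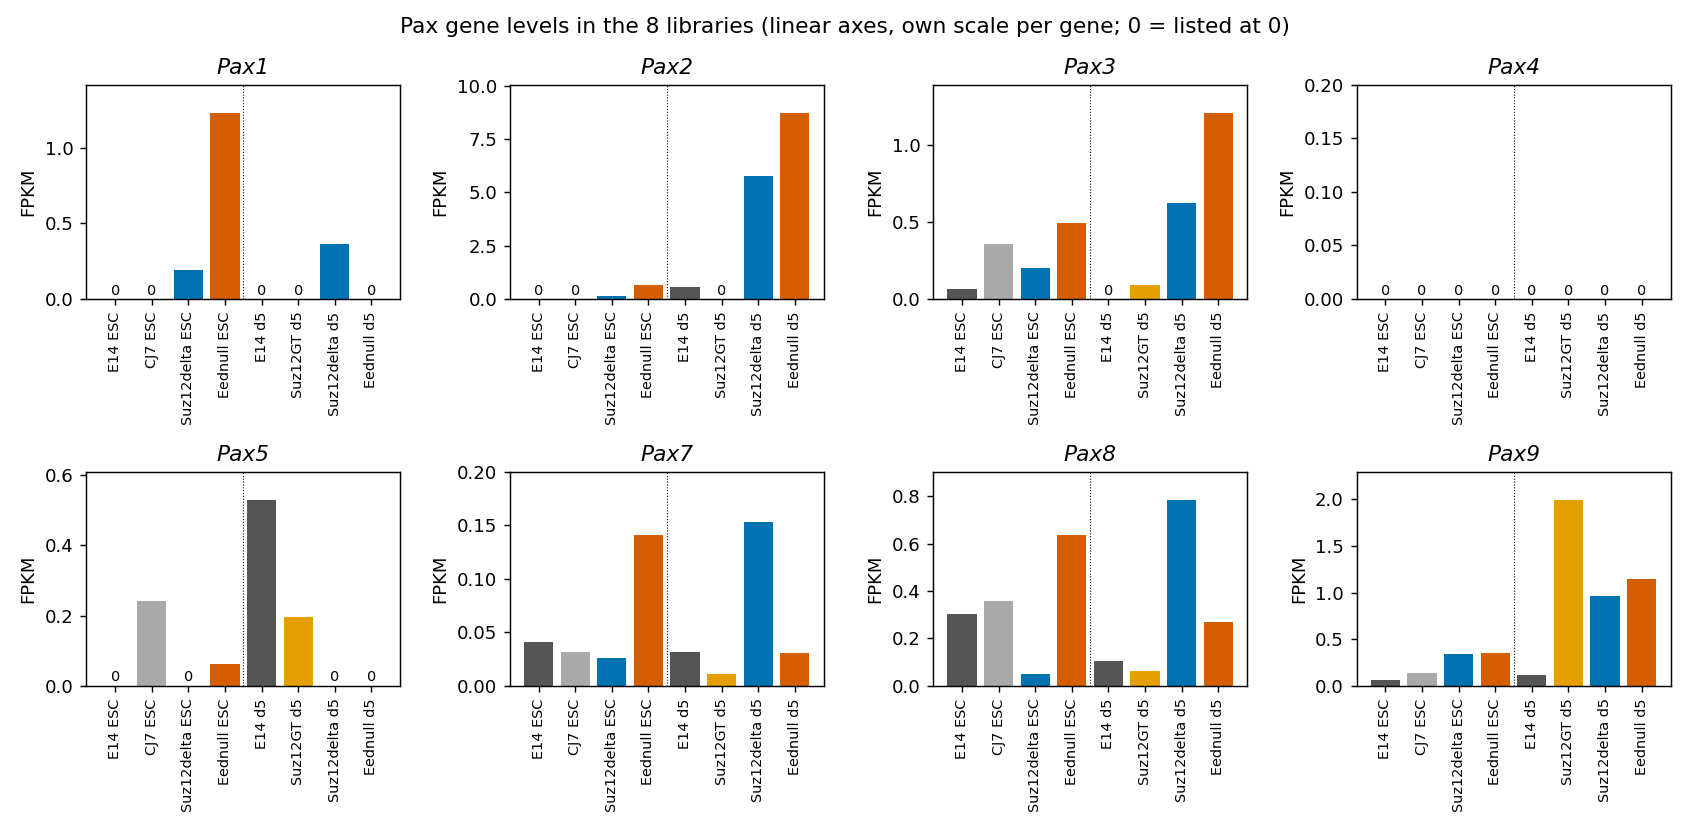
Level of each of the 8 Pax genes in FPKM (vertical axes, linear, a scale per gene) in the 8 libraries (bars, 1 library each, 4 ESC libraries left of the dotted line and 4 day 5 libraries right of it). A 0 marks a gene listed at 0. Pax2 stood at 5.78 and 8.74 FPKM in Suz12delta and Eednull cells at day 5 and at or below 0.672 FPKM in the other libraries, and Pax4 was listed at 0 in all 8.

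Pax2, which is needed for the formation of the kidney and the optic nerve, showed the widest range of the family. It was listed at 0 in E14 and CJ7 ESCs, and stood at 0.157 FPKM in Suz12delta ESCs and 0.672 FPKM in Eednull ESCs. At day 5 it was 0.555 FPKM in E14 cells, 0 in Suz12GT cells, 5.78 FPKM in Suz12delta cells and 8.74 FPKM in Eednull cells. It was thus the highest member in 3 of the 4 day 5 libraries, at 10.4 times the wild-type level in Suz12delta and 15.8 times in Eednull cells. Its neighbours were also highest in these 2 libraries, by smaller ratios. Fam178a, after it, was 13.2 FPKM in E14, 16.0 in Suz12GT, 26.6 in Suz12delta and 25.6 in Eednull cells at day 5, and Hif1an, before it, was 18.8, 18.9, 22.3 and 19.6 FPKM.

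Pax8, which acts in the thyroid and with Pax2 in the kidney, was the highest member in both wild-type ESC libraries, at 0.301 FPKM in E14 and 0.360 FPKM in CJ7. It was 0.0480 FPKM in Suz12delta ESCs and 0.635 FPKM in Eednull ESCs, on opposite sides of wild-type. At day 5 it was 0.104 FPKM in E14, 0.0633 FPKM in Suz12GT, 0.787 FPKM in Suz12delta and 0.268 FPKM in Eednull cells. Suz12delta cells thus held both the lowest and the highest Pax8 level of the series. Gm13415, which overlaps Pax8 on the other strand, was at 0.236 FPKM or below in every library.

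Pax5, the commitment factor of the B cell lineage, ran the other way from Pax2 in Suz12delta and Eednull cells at day 5. In Suz12GT cells both genes were lower than in wild-type. Pax5 was 0.531 FPKM in E14 cells at day 5 and 0.196 FPKM in Suz12GT cells, and was listed at 0 in Suz12delta and Eednull cells. In ESCs it was listed at 0 in E14 and Suz12delta, and stood at 0.241 FPKM in CJ7 and 0.0616 FPKM in Eednull. The wild-type lines therefore differed in whether Pax5 was seen at all. Its overlapping partner Gm12462 was at 0.142 FPKM or below in every library.

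Pax3, which marks dorsal neural progenitors and neural crest, was 0.0612 FPKM in E14 ESCs, 0.356 FPKM in CJ7 ESCs, 0.203 FPKM in Suz12delta ESCs and 0.491 FPKM in Eednull ESCs. The CJ7 level lay above that of Suz12delta, so the mutant and wild-type ESC libraries overlapped. At day 5 it was listed at 0 in E14 cells and stood at 0.0882 FPKM in Suz12GT, 0.625 FPKM in Suz12delta and 1.21 FPKM in Eednull cells. All 3 mutant libraries were above wild-type at this stage, although the Suz12GT level was below the minimum of 0.1 FPKM. Sgpp2, a sphingosine phosphate phosphatase gene next to Pax3, was likewise lowest in wild-type cells, at 0.0604 FPKM in E14, 0.325 in Suz12GT, 2.68 in Suz12delta and 2.48 in Eednull cells at day 5. Epha4, on the other side of Pax3, was instead highest in wild-type cells, at 12.8, 8.65, 8.59 and 9.60 FPKM in the same order.

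Pax7, the relative of Pax3 that marks muscle satellite cells, stayed near the limit of the table. It reached 0.1 FPKM in Eednull ESCs, at 0.141 FPKM, and in Suz12delta cells at day 5, at 0.153 FPKM. In the other 6 libraries it lay between 0.0105 FPKM (Suz12GT at day 5) and 0.0409 FPKM (E14 ESCs). Klhdc7a, which follows Pax7 on the chromosome, was 0.0369 FPKM in E14, 0.182 in Suz12GT, 1.47 in Suz12delta and 2.80 in Eednull cells at day 5. Tas1r2, on the other side of Pax7, was at 0.0305 FPKM or below in each day 5 library.

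Pax9, which acts in the pharyngeal pouches, teeth and sclerotome, was the member with the highest level in Suz12GT cells. In ESCs it was 0.0603 FPKM in E14, 0.136 FPKM in CJ7, 0.336 FPKM in Suz12delta and 0.354 FPKM in Eednull, so that both mutants lay above both wild-type lines. At day 5 it was 0.117 FPKM in E14, 1.998 FPKM in Suz12GT, 0.961 FPKM in Suz12delta and 1.14 FPKM in Eednull cells. All 3 mutant libraries lay above wild-type, Suz12GT the farthest, at 17.1 times. Slc25a21, a mitochondrial carrier gene that overlaps Pax9 on the other strand, was 0.477 FPKM in E14, 0.775 in Suz12GT, 4.46 in Suz12delta and 5.34 in Eednull cells at day 5. Its order among the mutants differed from that of Pax9, but it too was higher than wild-type in each of them, and how reads of the shared exons were assigned is not given in the sources used here. Nkx2-9, the nearest protein-coding gene before Pax9, was lower than wild-type in each mutant. It was 7.19 FPKM in E14, 4.91 in Suz12GT, 1.79 in Suz12delta and 1.52 in Eednull cells at day 5.

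Pax1, the relative of Pax9 with a role in the vertebral column and thymus, was listed at 0 in 5 of the 8 libraries. It stood at 0.191 FPKM in Suz12delta ESCs, 1.23 FPKM in Eednull ESCs and 0.367 FPKM in Suz12delta cells at day 5. The E14, Suz12GT and Eednull libraries at day 5 and both wild-type ESC libraries were at 0, so the highest Pax1 level of the series was in Eednull ESCs and was not seen at day 5 of the same line. AI646519, which overlaps Pax1, was at 0 in the same 5 libraries and stood at 0.328 FPKM in Suz12delta ESCs, 0.514 FPKM in Eednull ESCs and 0.105 FPKM in Suz12delta cells at day 5. Nkx2-2 and Foxa2, the protein-coding genes on either side, were also higher in Eednull ESCs than in E14 ESCs, at 1.17 against 0.0660 FPKM and 2.61 against 0.147 FPKM.

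Pax4, which directs beta cell formation in the pancreas, was listed at 0 in all 8 libraries and enters no comparison. A value of 0 is no proof of absence, because each library listed between 0 and 5 genes at 0 that were at 10 FPKM or more in the other 7. Its neighbour Snd1, at 56.3 to 94.5 FPKM, was well covered in all of them.

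A pair of libraries was compared over the genes that reached 0.1 FPKM in either of them. A gene was counted as higher or lower at a 2-fold difference of FPKM plus 0.1, a scale that understates the difference of low genes, and no fold is given against a library at 0. A gene at 0 in a library enters only by reaching 0.1 FPKM in the other, and is then always counted. Between the wild-type ESC lines, 2331 of the 3643 genes higher in CJ7 were at 0 in E14. The same count over all genes compared is given as the background. It covers genes of all levels and was not matched to the low Pax levels, so the 2 shares are not like for like.

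Over wild-type differentiation, 2 of the 4 Pax genes compared were higher at day 5 than in ESCs, where 18.3% of all genes were higher, and none was lower by the 2-fold rule, where 25.8% were. The 2 were Pax2 and Pax5, both listed at 0 in ESCs. Pax8 fell just short of a 2-fold decrease, with a log2 ratio of -0.98, and Pax9 had a log2 ratio of 0.44. Pax1 and Pax4 were at 0 at both stages, Pax3 and Pax7 were under the minimum at both, and the group had no member above 1 FPKM at the end of the differentiation. Over the same days the motor neuron markers went in sum from 9.59 to 119 FPKM.

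The comparison of the wild-type lines gives an example of differences unrelated to PRC2 mutation, from a single pair of ESC libraries. It covers neither the strain backgrounds of Suz12delta and Eednull nor day 5. CJ7 was higher than E14 for 2 of the 4 Pax genes compared, Pax3 and Pax5, against 15.7% of all genes, and lower for 0 of them, against 14.7%. Pax3 was 5.82 times as high in CJ7 and Pax5 was 0 in E14. Pax9 and Pax8 had log2 ratios of 0.56 and 0.20. The sample labels place CJ7 in a batch of preparation and sequencing with the library numbered like that of Eednull ESCs, so a batch separates E14 from CJ7 in addition to the line.

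In Suz12delta ESCs, Pax1, Pax2 and Pax9 were higher than in E14 and Pax8 was lower. These were 3 of the 5 genes compared, where 18% of all genes were higher, and 1 of 5, where 22.8% were lower. Pax1 and Pax2 were at 0 in E14, Pax9 had a log2 ratio of 1.44, Pax3 one of 0.91 and Pax8 one of -1.44. The median over the 3 members above 0 in both libraries was 0.91, beside -0.32 over all such genes. Against CJ7 instead, Pax1 and Pax2 were again higher (2 of 6 compared, background 21.1%), Pax5 and Pax8 were lower (background 24%), Pax3 turned from above to below the wild-type level, with a log2 ratio of -0.59, and Pax9 came to 0.89. The fibroblast sum of this library was the highest of the series, at 1048 FPKM, and all 12 fibroblast markers were more than 2-fold above E14.

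In Eednull ESCs, 4 of the 6 Pax genes compared were higher than in E14 (background 22.4%) and 0 were lower (background 11.9%). Pax1 and Pax2 were at 0 in E14, and Pax3 and Pax9 had log2 ratios of 1.88 and 1.501. Pax8 and Pax7 had ratios of 0.87 and 0.77, short of 2-fold. The median over the 4 members above 0 in both was 1.19, beside -0.06 over all such genes. Of the 12 fibroblast markers, 4 were at least 2-fold above E14 here. Against CJ7, the wild-type library that by the numbering appears to share its batch, 2 of 7 Pax genes remained higher, Pax1 and Pax2 (background 20.5%), and Pax5 was lower, with a log2 ratio of -1.08 (background 10.7%). The log2 ratios of Pax3, Pax8, Pax7 and Pax9 against CJ7 were 0.38, 0.68, 0.88 and 0.94.

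Pax1 and Pax2 were the members higher in both mutant ESC libraries than in both wild-type ESC libraries, a pattern of 4.5% of the 20060 genes compared in all 4 pairs, and 0 members were lower (background 1.73%). Both were at 0 in each wild-type library, so their calls state only that they reached 0.1 FPKM in both mutants. With E14 alone as wild-type, Pax9 joined them, so that 3 members were higher (background 8.14%) and 0 lower (background 7.59%). Taking each mutant by itself against both wild-type libraries, the same 2 genes were higher in Eednull ESCs (background 14.1%), with 0 lower (background 3.36%), and in Suz12delta ESCs (background 13.7%), where Pax8 was lower (background 11.8%).

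At day 5 the Suz12GT cells differed from wild-type by the 2-fold rule in 3 of the 4 Pax genes compared. Pax9 was higher, 1 of 4 (background 16.8%), with a log2 ratio of 3.27. Pax2 and Pax5 were lower, 2 of 4 (background 4.4%), Pax2 listed at 0 and Pax5 with a log2 ratio of -1.09. Pax8 had a ratio of -0.32. Since E14 and Suz12GT share the 129/Ola background, this is the comparison in which strain differs least. The Suz12GT fibroblast sum was 24.4 FPKM, beside 5.11 FPKM in wild-type.

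Suz12delta cells at day 5 were higher than wild-type for 5 of the 7 Pax genes compared (background 26.6%) and lower for 1 (background 9.52%). Pax2, Pax9 and Pax8 had log2 ratios of 3.17, 2.29 and 2.12, and Pax1 and Pax3 were at 0 in wild-type cells. Pax7 had a ratio of 0.95, short of the 2-fold rule, and Pax5 was listed at 0. The median over the 4 members above 0 in both libraries was 2.21, beside 0.21 over all such genes. All 12 fibroblast markers were at least 2-fold above wild-type as well.

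Eednull cells at day 5 were higher than wild-type for 3 of the 5 Pax genes compared (background 21.6%) and lower for 1 (background 11.3%). Pax2 and Pax9 had log2 ratios of 3.76 and 2.52, Pax3 was at 0 in wild-type cells, Pax8 had a ratio of 0.85 and Pax5 was listed at 0. The median over the 3 members above 0 in both was 2.52, beside 0.05 over all such genes. Of the 12 fibroblast markers, 11 were at least 2-fold above wild-type. These day 5 comparisons share the E14 library as control. Pax2, Pax3 and Pax9 were higher in both Suz12delta and Eednull cells, as were 18% of the 20749 genes compared in both, and Pax5 was lower in both, as were 7.67%. Pax9 was the member higher than wild-type in all 3 mutants (8.99% of 19884 genes) and Pax5 the member lower in all 3 (1.82%).

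**Figure D3:**
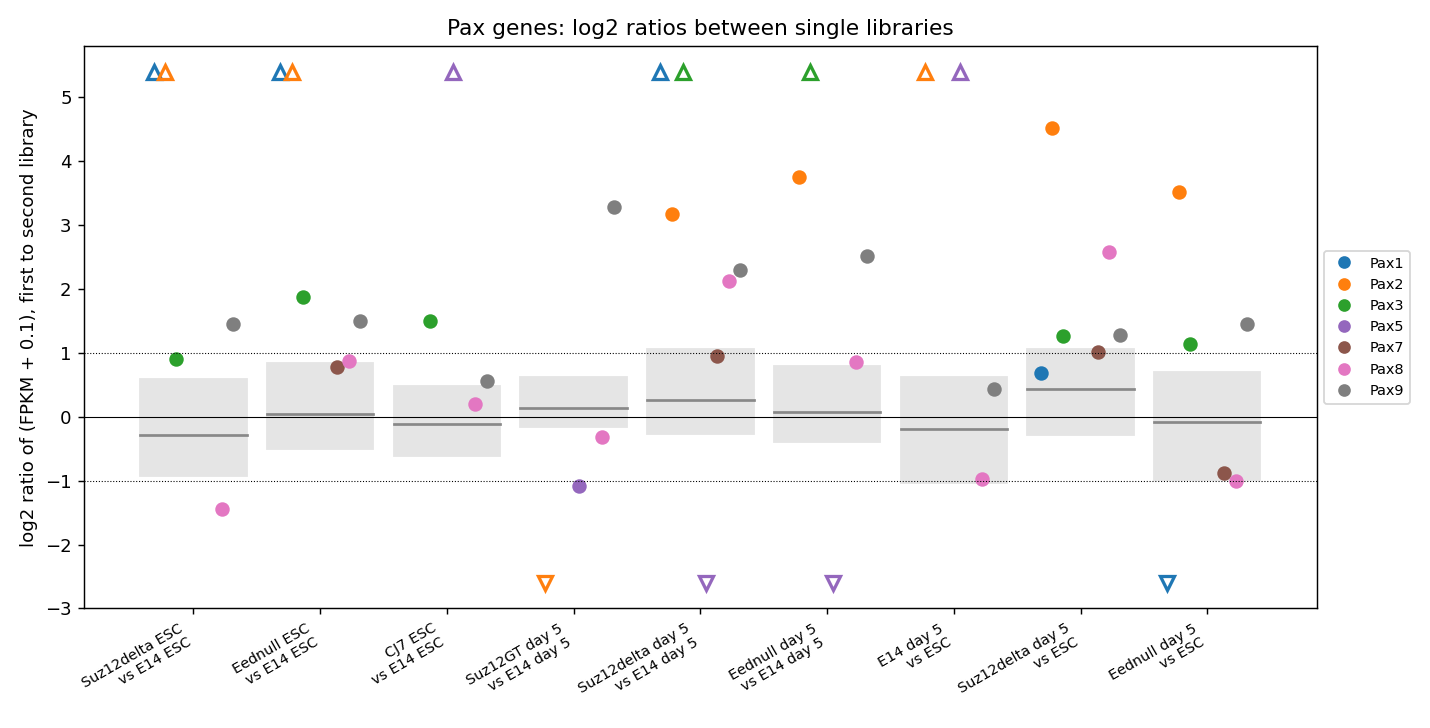
Log2 ratio of FPKM plus 0.1 between single libraries (vertical axis) for the Pax genes compared (points) in 9 comparisons (horizontal axis), with the middle 50% and the median of all genes compared as grey boxes and lines and dotted lines at 2-fold. Open triangles at the top and bottom mark genes at 0 in the second or first library, which have no ratio. Pax2 reached 3.17 and 3.76 in Suz12delta and Eednull cells at day 5, and Pax9 lay above the 2-fold line in all 3 day 5 mutants.

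During differentiation of Suz12delta cells, 5 of the 6 Pax genes compared were higher at day 5 than in ESCs (background 26.9%) and 0 were lower (background 12.6%). Pax2 had a log2 ratio of 4.51, Pax8 of 2.58, Pax9 of 1.28, Pax3 of 1.26 and Pax7 of 1.01, and Pax1 of 0.68. The last 4 lay close to the 2-fold line, and when libraries were scaled to the same 75th percentile the count was 2, Pax2 and Pax8. This scaling moved the median log2 ratio of all genes in this comparison from 0.43 to 0.06. Over these days the fibroblast sum went from 1048 to 129 FPKM, which was still above the 5.11 FPKM of E14 cells at day 5. Its relation to the Pax levels was not tested.

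In Eednull cells, 3 of the 6 Pax genes compared were higher at day 5 than in ESCs (background 18.4%), Pax2 with a log2 ratio of 3.52, Pax9 with 1.45 and Pax3 with 1.14. Pax1 was lower (1 of 6, background 24.8%), going from 1.23 FPKM to 0. Pax8 stood at 0.422 times its ESC level, just short of 2-fold once 0.1 was added to both values, and Pax7 had a log2 ratio of -0.89. If the numbering is read rightly, this comparison crosses batches. Pax2 was thus the member with the largest level at day 5 in both lines, and the 2 lines moved in opposite directions for Pax7 and Pax8.

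Genes known for the tissues in which Pax2 and Pax8 act were examined next. The shares of all genes beside which the counts below stand were 26.6% higher and 9.52% lower in Suz12delta, 21.6% and 11.3% in Eednull and 16.8% and 4.4% in Suz12GT cells at day 5, and 18% and 22.8% in Suz12delta and 22.4% and 11.9% in Eednull ESCs, each against E14. For ESCs, counts against CJ7 are also given for several lists. The lists are short, and a count near these shares is not a result about the list. These shares, too, were not matched for level. Of 8 genes of the embryonic kidney and intermediate mesoderm, 5 were higher and 2 lower than wild-type at day 5 in both Suz12delta and Eednull cells, with median log2 ratios of 3.46 and 3.31. In Suz12GT cells 4 of 7 were higher and 0 lower. Wt1, a zinc finger factor of the kidney and gonad, was 0.327 FPKM in E14, 1.38 in Suz12GT, 28.8 in Suz12delta and 36.3 in Eednull cells, and Osr1, an early intermediate mesoderm factor, was 0.127, 0.410, 15.2 and 11.8 FPKM in the same order. Wnt4, a signal for tubule formation, was 0.317, 2.52, 5.28 and 3.65 FPKM. Ret and Sall1 went the other way. Ret, the receptor of the ureteric bud that is also expressed in motor neurons, was 13.9, 32.7, 2.82 and 0.982 FPKM, and Sall1 was 12.9, 13.3, 1.89 and 2.84 FPKM. In ESCs, 6 of 8 kidney genes were higher and 1 lower in Suz12delta and 5 of 8 higher and 0 lower in Eednull. Against CJ7 these counts were 5 higher and 2 lower, and 4 higher and 0 lower, and CJ7 itself was higher than E14 for 3 of 7 and lower for 1.

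**Figure D4:**
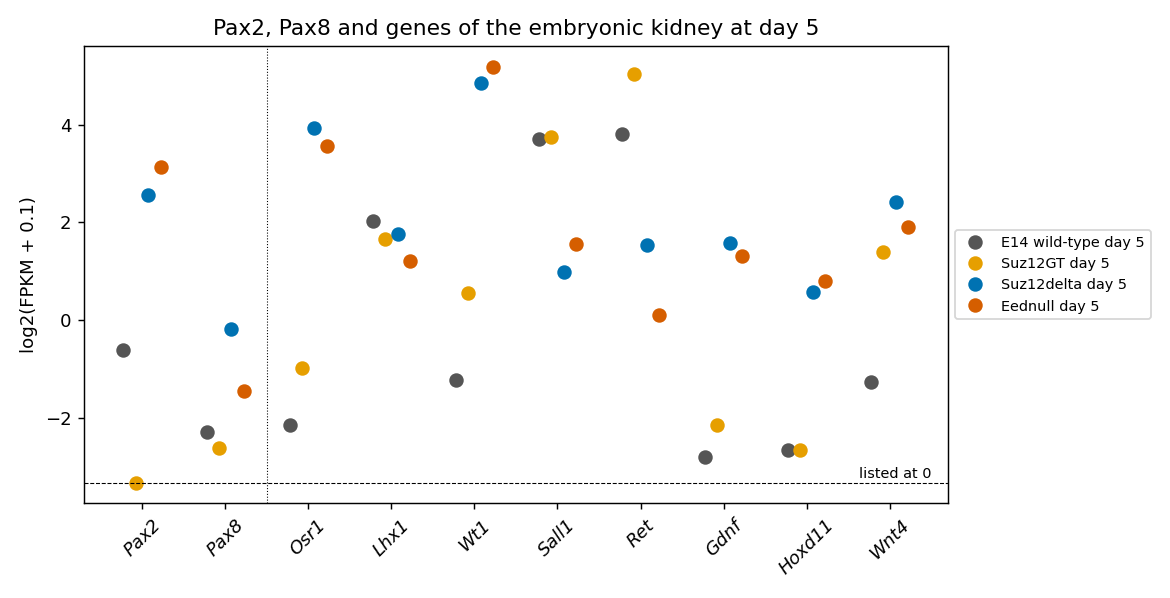
Log2 of FPKM plus 0.1 (vertical axis) of Pax2, Pax8 and 8 genes of the embryonic kidney (horizontal axis) in the 4 day 5 libraries (points, 1 library each). The dashed line marks genes listed at 0. Suz12delta and Eednull cells lie above E14 and Suz12GT for Pax2, Pax8, Osr1, Wt1, Gdnf, Hoxd11 and Wnt4, and below them for Sall1 and Ret.

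For the midbrain-hindbrain boundary, 5 of 6 genes compared were higher than wild-type at day 5 in Suz12delta cells, 5 of 7 in Eednull cells and 3 of 4 in Suz12GT cells, with 0 lower. Lmx1b, a LIM homeodomain factor, was 4.58 FPKM in Eednull cells against 0.268 FPKM. Most of these levels were low. Of the 7 genes listed, 2 reached 1 FPKM in Suz12delta and in Eednull cells at day 5, with medians of 0.488 and 0.509 FPKM. The 2 were Lmx1b and Gbx2, and Gbx2 was 2.67 FPKM in Suz12delta and 1.88 in Eednull cells against 2.62 FPKM in E14. In ESCs the counts were 2 higher and 4 lower of 6 in Suz12delta, where Fgf8, the signal of the boundary, was 0.974 against 20.5 FPKM, and 2 higher and 0 lower of 7 in Eednull. Fgf8 was 2.93 FPKM in CJ7 ESCs, and CJ7 was higher than E14 for 0 of 7 and lower for 2. Against CJ7 the counts were 2 higher and 5 lower of 7 in Suz12delta and 2 and 0 of 7 in Eednull ESCs. The list of spinal interneuron genes held mainly markers of inhibitory cells, but also Evx1, which is not one. Its day 5 counts were 4 higher and 0 lower of 8 in Suz12delta, 6 and 1 of 8 in Eednull and 2 and 2 of 7 in Suz12GT cells. In Suz12GT cells En1 was 1.56 against 0.139 FPKM. Evx1 was counted as higher in Suz12delta and Eednull cells, at 0.996 and 0.498 FPKM against 0.0380 FPKM. These levels were low. Of the 9 genes listed, 0 reached 1 FPKM in Suz12delta or Eednull cells at day 5, with medians of 0.276 and 0.432 FPKM. In Suz12delta ESCs 3 of 6 were higher and 2 lower, among them Gad1 (an enzyme of GABA synthesis) at 0.559 against 7.13 FPKM, and in Eednull ESCs 3 of 7 were higher and 2 lower. Gad1 was also 0.558 FPKM in CJ7 ESCs, so a wild-type line differed from E14 as much. Against CJ7 the counts were 3 higher and 1 lower of 7 in Suz12delta and 2 and 1 of 7 in Eednull ESCs. For the thyroid, where CJ7 ESCs were higher than E14 for 2 of 4 genes and lower for 1, 5 of 6 were higher and 1 lower at day 5 in both Suz12delta and Eednull cells, and 3 of 4 higher and 1 lower in Suz12GT cells. Tshr, the thyrotropin receptor, was 3.82 FPKM in Eednull cells against 0.109 FPKM. In ESCs, 2 of 5 thyroid genes were higher and 1 lower in Suz12delta, where Hhex was 0.811 against 2.64 FPKM, and 5 of 7 higher and 0 lower in Eednull, or 3 of 7 against CJ7.

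Genes of the dorsal neural tube and neural crest, where Pax3 and Pax7 act, were higher than wild-type at day 5 for 8 of 11 in Suz12delta (all genes 26.6%), 6 of 10 in Eednull (21.6%) and 6 of 10 in Suz12GT cells (16.8%), and 0 were lower in each. Snai2, a regulator of neural crest migration, was 4.53 FPKM in Eednull cells against 0.0736 FPKM. Foxd3 was 0.169 FPKM in Suz12delta and 0.136 in Eednull cells against 0.177 FPKM in E14, and Wnt3a 0.0315 and 0.0226 against 0.0696 FPKM. The median level of the list was 0.934 FPKM in Suz12delta and 0.319 in Eednull cells. The fibroblast sums given above were also higher in these libraries, and their part in the counts was not tested. In ESCs 6 of 12 were higher and 1 lower in Suz12delta, the latter being Foxd3 at 0.930 against 2.91 FPKM, and 4 of 13 higher and 0 lower in Eednull, where 22.4% of all genes were higher. CJ7 was likewise higher than E14 for 4 of 13 and lower for 2, so the Eednull count is no larger than that between the wild-type lines. Of muscle precursor genes, 4 of 5, 5 of 5 and 3 of 4 were higher at day 5 in Suz12delta, Eednull and Suz12GT cells, and 3 of 3 and 2 of 4 in Suz12delta and Eednull ESCs against E14, with 0 lower in any. The ESC counts did not hold against CJ7, with 1 higher and 1 lower of 5 in Suz12delta, where the median log2 ratio over the 5 compared was -0.72 in place of 1.203 over the 3 compared with E14, and 2 higher and 1 lower of 5 in Eednull. CJ7 was higher than E14 for 2 of 4 of these genes. Meox1, a somite factor, was 2.34 FPKM in Eednull ESCs and 0 in E14 ESCs, and Met, the receptor that migrating muscle precursors carry, had the lowest ratio among genes of the list at 1 FPKM or more, at 2.39 against 1.39 FPKM in the same pair. Myf5, a myogenic determination factor, was at or below 0.0538 FPKM in all 8 libraries, and Myod1, another, at or below 0.0821 FPKM.

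Among genes of the sclerotome and pharynx, where Pax1 and Pax9 act, 7 of 8 were higher in Suz12delta, 7 of 8 in Eednull and 6 of 7 in Suz12GT cells at day 5, and 0 were lower. Tbx18 was 1.72 FPKM in Suz12delta cells against 0.00611 FPKM, and Sox6 had the lowest ratio among genes of the list at 1 FPKM or more, at 1.43 against 1.151 FPKM in the same pair. In ESCs 4 of 7 were higher in Suz12delta and 3 of 9 in Eednull, with 0 lower, and CJ7 was higher than E14 for 3 of 8. Against CJ7 the counts were 2 of 8 and 5 of 10. This list includes genes that fibroblasts also express, such as Twist1, and the fibroblast sums given above were higher in the same libraries.

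The lists for Pax5 and Pax4 held few genes above the minimum. Of B lymphocyte genes, 3 of 4 were higher and 1 lower in Suz12delta, 1 of 3 higher and 0 lower in Eednull and 1 of 1 higher in Suz12GT cells at day 5, and 0 of 4 were higher and 1 lower in Suz12delta ESCs and 2 of 4 higher and 0 lower in Eednull ESCs, the latter becoming 1 of 4 against CJ7. Ebf1, which also acts in neurons, was 6.62 FPKM in E14, 22.0 in Suz12GT and 2.29 in Suz12delta cells at day 5. Of pancreatic endocrine genes, 5 of 5 were lower at day 5 in both Suz12delta and Eednull cells, whereas 3 of 7 were higher and 0 lower in Suz12GT cells. Several of these genes are shared with motor neuron development, such as Isl1 and Nkx6-1, and Neurod1 went from 13.9 FPKM in wild-type to 0.207 FPKM in Eednull cells. In ESCs 1 of 6 was higher and 1 lower in Suz12delta, and 6 of 8 higher and 1 lower in Eednull, where Nkx2-2 was 1.17 against 0.0660 FPKM.

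Proteins of the families of Six2, Eya1 and Dach1 act with Pax proteins in the kidney, ear and muscle. Of the genes of this network, 3 of 10 were higher and 2 lower at day 5 in both Suz12delta and Eednull cells, and 1 of 10 higher and 0 lower in Suz12GT cells, close to the shares of all genes. Dach1 was 11.1 FPKM in E14 and 10.8 FPKM in Suz12GT cells, and was listed at 0 in Suz12delta and Eednull cells. In ESCs 4 of 10 were higher and 2 lower in Suz12delta, and 3 of 10 higher and 0 lower in Eednull, where Six2, a factor of nephron progenitors, was 2.56 against 0.0624 FPKM.

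For the 4 Pax genes that reached 1 FPKM in any library, the genes with the most similar pattern were sought among 18538 genes, by the root mean square difference of log2 values centred on each gene's mean over the 8 libraries. Nearest to Pax2 were Col14a1 (0.85), Vgll2 (0.86) and 9130206I24Rik (0.96). Col14a1, a collagen gene, was 6.77 FPKM in Suz12delta and 6.80 FPKM in Eednull cells at day 5 and at 0.203 FPKM or below elsewhere. Nearest to Pax9 were Arhgap20 (0.30), Tbx20 (0.31) and Cntnap2 (0.36), and the first and last shared with Pax9 the order of the day 5 libraries, with Suz12GT highest, then Eednull, then Suz12delta. Nearest to Pax3 were Gsc (0.32), a homeobox gene of the embryonic organizer, Esam (0.38) and Gfra4 (0.43). Nearest to Pax1 were D630029K05Rik (0.48), 7SK (0.50) and Gm14528 (0.51), all highest in Eednull ESCs. These distances rest on 8 libraries and on low values, in which genes at 0 in several libraries resemble each other.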

How the data were processed

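The data were 8 RNA-seq libraries, 1 per condition. The FPKM values deposited by the authors came from alignment with Bowtie 0.12.7 and TopHat 1.3.2 and estimation with Cuffdiff and Cufflinks 1.2.1, on an Ensembl-based annotation of NCBI build 37, per the submitters' processing notes and the study's methods. All 8 columns were assigned by name, and reads were not analysed. Sequencing used more than one instrument model.

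Log2 ratios were computed from FPKM plus 0.1 over genes that reached 0.1 FPKM in either library of a pair, without rescaling, and a 2-fold difference was counted. Where a symbol had several entries, that with most start sites was used. The members and gene lists were chosen with earlier results of these data known. All 8 members are named, with the highest and lowest ratio of each list among genes at 1 FPKM or more and the 3 nearest genes per member. Other genes of the lists, and neighbours of members, were named after their values were seen. A few genes of the lists are not reported here and were left out of the counts. With 1 library per condition no test was made, and the depth is unknown. Positions are from GENCODE vM1 and promoters from RefSeq. Alternatives were a pseudocount of 1 or of 0.01, no minimum or 1 FPKM, scaling to the same 75th percentile, 4-fold for a count, and CJ7 as the wild-type ESC. Ratios were tested on simulated data in which only genes well above the Pax levels of E14 ESCs were changed, so calls at low levels were not covered. Python 3.11.15, NumPy 2.4.6, pandas 2.3.3 and Matplotlib 3.10.9 were used.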

Additional observations from a re-analysis of the deposited data

Results flagged for a closer look

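The members below were at least 2-fold higher in 1 line and at least 2-fold lower in another under the same contrast, by plain FPKM. With 1 library per condition, none of these differences between lines was tested. From ESCs to day 5, Pax8 went from 0.0480 to 0.787 FPKM in Suz12delta cells, but from 0.301 to 0.104 FPKM in E14 and from 0.635 to 0.268 FPKM in Eednull cells. In ESCs, the Suz12delta level of Pax8 lay below the 0.301 FPKM of E14 and the Eednull level above it.

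Pax7 went from 0.0258 to 0.153 FPKM in Suz12delta cells and from 0.141 to 0.0302 FPKM in Eednull cells. At day 5, Pax2 was 5.78 FPKM in Suz12delta and 8.74 FPKM in Eednull cells against 0.555 FPKM in E14 cells, and was listed at 0 in Suz12GT cells.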

How the results depend on the processing

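Under the alternatives run, no Pax ratio changed direction except where CJ7 replaced E14 as the wild-type ESC, when that of Pax3 in Suz12delta ESCs, and with it the median of the members, went from 0.91 to -0.59. The median of Suz12GT cells at day 5 went from -0.32 over 3 members to 3.27 with a minimum of 1 FPKM, which left Pax9 alone. Counts of Pax genes 2-fold apart depended on the pseudocount and the minimum, since most levels were below 1 FPKM. With a pseudocount of 1, and likewise with a minimum of 1 FPKM, 0 members were higher and 0 lower in Suz12delta ESCs, 1 was higher in Eednull ESCs, 0 in CJ7 ESCs, 1 in Suz12delta cells at day 5, 0 over E14 differentiation and 1 over Suz12delta differentiation, and 0 were lower in any day 5 mutant. With that pseudocount 1 was higher over Eednull differentiation. A pseudocount of 0.01 gave 1 lower over E14 and 3 lower over Eednull differentiation. Without a minimum, every count stayed within 1.5 times.

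At 4-fold, 0 were higher and 0 lower in Suz12delta ESCs, 2 higher in Eednull ESCs, 0 in CJ7 ESCs, 1 lower in Suz12GT cells, 2 higher over Suz12delta and 1 over Eednull differentiation. After scaling, 2 were higher over Suz12delta and 2 lower over Eednull differentiation. Scaling moved the median log2 ratio of all genes from -0.28 to 0.07 in Suz12delta ESCs, from 0.04 to 0.20 in Eednull ESCs, from 0.26 to 0.11 in Suz12delta cells at day 5 and from -0.20 to -0.06 over E14 differentiation. With CJ7 as wild-type, 2 were lower in Suz12delta ESCs, and 2 higher and 1 lower in Eednull ESCs. No paired analysis was possible because each condition had 1 library and no ratio came from a test. The depth behind the low levels is unknown.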
